A study of Mus musculus with 9 samples.

Results

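The neurons described here were the inhibitory neurons of the mouse central amygdala that were negative for 8 marker genes. A gene was called positive in a cell at 1 count or more per 10000 of that cell's gene counts. A cell was called inhibitory when it was positive for Gad1, Gad2 or Slc32a1, which make GABA or load it into vesicles, and negative for the glutamate transporters Slc17a6 and Slc17a7. Marker-negative neurons were inhibitory cells negative for 5 classical markers, the kinase gene Prkcd and the peptide precursors Sst, Crh, Tac2 and Nts, and for the 3 transcription factor genes Nr2f2, Isl1 and Foxp1. They were thus selected on the measured counts of these 13 genes. There were 104 of them among 810 inhibitory neurons and 829 cells in all. They were compared with the other 706 inhibitory neurons, which were positive for at least 1 of the 8 markers. Of these, 162 factor-only neurons had a transcription factor and no classical marker, and 544 classical-marker neurons had at least 1 classical marker.

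The study profiled single central amygdala cells of wild-type B6 mice in order to describe the inhibitory neurons of this nucleus. The tissue was microdissected from acute slices, dissociated and pooled across slices, and all 9 samples belonged to 1 group, with no treatment named. The deposited cell table assigns the 9 samples to 3 animal numbers on each of 3 date fields. The sources used here do not say whether a shared number means a shared animal, so p-values measure the spread between these samples only.

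The central amygdala is a striatum-like nucleus made up almost wholly of GABA neurons, which gate fear, feeding and pain responses through mutual inhibition and long-range projections. Prkcd and Sst mark large, mostly separate populations there, and peptides such as corticotropin-releasing hormone, neurotensin, tachykinin 2, dynorphin and enkephalin are released by partly overlapping sets of cells. Immediate early genes such as Fos are switched on within minutes of neuronal firing or of stimuli such as handling of the tissue, and are read as markers of recent activity.

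Depth was examined first, because low counts can hide a marker. The median marker-negative neuron held 128192.5 gene counts, against 126413.5 in the other inhibitory neurons. Within samples the medians ranged from 91479 to 213679 in marker-negative neurons and from 96675 to 232973 in the others. Marker-negative neurons had the higher median in 3 of 9 samples, and the log2 ratio averaged 0.014 ± 0.17 (SD, n = 9; exact two-sided sign-flip permutation test, p = 0.797, adjusted p = 0.797 over 3 measures). Detected genes per cell had medians of 4602 in marker-negative neurons and 4525 in the others (exact permutation p = 0.742, adjusted p = 0.797). The share of spike-in RNA, which falls as a cell's own RNA rises, was 12.2% in marker-negative neurons and 12.6% in the others (exact permutation p = 0.0859, adjusted p = 0.258). Very shallow cells were few, with 2 marker-negative neurons (666 and 2452 counts) and 7 others under 20000 counts. The median share of mitochondrial counts was lower in marker-negative neurons in all 9 samples, at 2.15 to 4.36%, against 2.90 to 4.49% in the others, a mean difference of -0.546 percentage points (SD 0.251). Its part in the results that follow was not tested.

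Marker-negative neurons made up 12.9% ± 2.80 of the inhibitory neurons (SD, n = 9 samples). The lowest share was 7.37% in sample 1 (7 of 95 cells, exact 95% interval 3.01 to 14.6%) and the highest 16.7% in sample 9 (14 of 84 cells, 9.42 to 26.4%). These intervals overlap, and they cover counting error only. By animal number the shares were 9.93%, 13.3% and 15.4%, and by date field 11.8%, 13.3% and 13.5%. When every cell was thinned to 50000 counts and classified again, the share was 11.9% ± 3.23, and 87 of the 101 marker-negative neurons deep enough to thin were marker-negative again. The share depended on the level that makes a cell positive. With a single count as the level 13 cells remained (1.64%), and with 3 counts per 10000 there were 210 (28.1%).

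**Figure D1:**
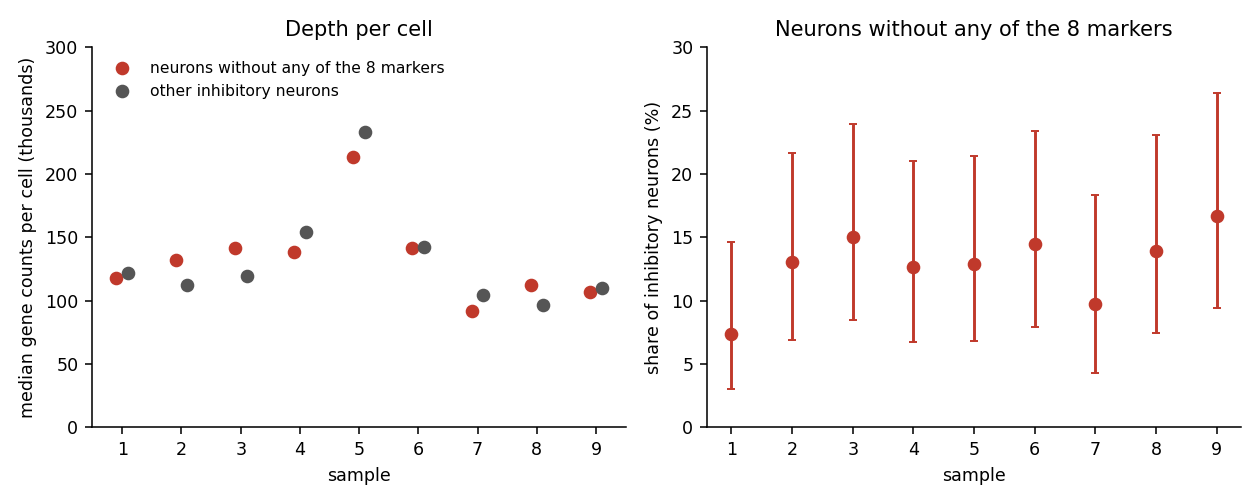
Left, median gene counts per cell in each of the 9 samples for marker-negative neurons and other inhibitory neurons. Right, marker-negative neurons as a percentage of inhibitory neurons per sample, with exact 95% binomial intervals. The medians of the classes lie close together in every sample, both highest in sample 5, and the share runs between 7.37 and 16.7%.

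The 8 markers were low rather than wholly absent in these cells, which is a description of how the cells were chosen and not a result. Prkcd had at least 1 count in 38 of the 104 marker-negative neurons, Sst in 41, Tac2 in 28, Nts in 12 and Crh in 6. Among the factors, Foxp1 had a count in 45 cells, Nr2f2 in 22 and Isl1 in 14. Only 13 cells had 0 counts of all 8. In 31 cells the highest of the 8 lay between 0.5 and 1 per 10000, just under the level for positive, and in 70 of the other inhibitory neurons it lay between 1 and 2. The cells nearest to the level had Foxp1 at 0.995, Isl1 at 0.995 and Foxp1 at 0.967 per 10000 inside it, and Isl1 at 1.01 and 1.02 and Foxp1 at 1.04 outside it. In summed counts Sst stood at 5.79 CPM (counts scaled to a library total of 1000000) in marker-negative neurons, against 713 CPM in the others, and Foxp1 at 18.4 CPM, against 78.8 CPM.

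The selection required a GABA gene and excluded cells positive for a glutamate transporter in both groups, so the following shares of Gad1, Gad2, Slc32a1 and Slc17a6 describe the selected cells and test nothing. Gad2, which makes GABA at synapses, was positive in 96.2% of marker-negative neurons, against 94.8% of the others, and Gad1 in 87.5%, against 89.9%. For the vesicular GABA transporter gene Slc32a1 the shares were 21.2% and 16.0%. At least 1 of 5 general neuron markers was positive in 100% of marker-negative neurons, against 99.9% of the others. Slc17a6 had 0 counts in them.

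Most markers of other cell types were absent. Of the oligodendrocyte genes, Mbp (myelin basic protein) was positive in 18.3% of marker-negative neurons, against 27.1% of the others. Precursor, microglial and endothelial markers (Pdgfra, Cspg4, C1qa, Cx3cr1, Csf1r, Cldn5 and Flt1) were at 0 counts in all marker-negative neurons, as were the astrocyte genes Aqp4 and Gja1. No marker-negative neuron was positive for any of the 5 astrocyte markers (0 of 104, an upper limit of 2.88%). In sample 5, 2 marker-negative neurons were positive for at least 3 of the oligodendrocyte genes Mbp, Mog, Mobp and Mag while also positive for Gad1, Gad2, Snap25 and Syt1. They held 587188 and 399333 counts, together 33.3% of the counts of all marker-negative neurons in that sample, and none of the other 706 inhibitory neurons met that criterion (0 of 706, an upper limit of 0.425%). The summed level of these 4 oligodendrocyte genes ranged from 12.1 to 9092 CPM across the samples in marker-negative neurons, with a median of 62.0, and from 56.7 to 98.1 CPM in the others. Their part in the results was not tested beyond the values without these cells, which stand beside the results they change. Across the series there were 376 distinct cell barcodes, of which 368 occurred in more than 1 sample and at most in 3, and 0 cells repeated the counts of another cell.

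The genes proposed as markers of these neurons, Penk, Aldoc and Pax6, did not set them apart by the test across all genes. Penk, the enkephalin precursor, was at 753, 1883 and 3766 CPM in marker-negative neurons (lowest, median and highest sample), against 1623, 2120 and 2325 CPM in the others. The ranges overlapped fully, and 76.9% of marker-negative neurons were positive, against 77.6% of the others. The log2 fold change was -0.19 ± 0.19 (SE; edgeR quasi-likelihood test with Benjamini-Hochberg adjustment, adjusted p = 0.719). Aldoc, the brain form of the glycolytic enzyme aldolase and also abundant in astrocytes, was at 0, 204 and 423 CPM in marker-negative neurons, against 34.4, 96.6 and 227 CPM in the others. It was higher in 7 of 9 samples and positive in 29.8% of cells, against 17.0%, and the groups overlapped (log2 fold change 0.64 ± 0.38, edgeR adjusted p = 0.53). Sample 7 had no Aldoc count in its 8 marker-negative neurons. Pax6, a homeobox factor of forebrain and intercalated-cell development, was at 0, 7.97 and 63.8 CPM, against 17.9, 21.4 and 49.5 CPM, and positive in 9.62% of marker-negative neurons, against 9.77% of the others (log2 fold change -1.32 ± 0.80, edgeR adjusted p = 0.535). It was low in most samples and above the others' median in samples 1, 5, 7 and 8.

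At least 1 of the 3 genes was positive in 92 of the 104 marker-negative neurons. Penk was positive in 21 of the 31 Aldoc-positive marker-negative neurons, where independence would give 23.8, and in 8 of the 10 Pax6-positive ones, where it would give 7.69. Aldoc and Pax6 were positive together in 1 cell, where independence would give 2.98.

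**Figure D2:**
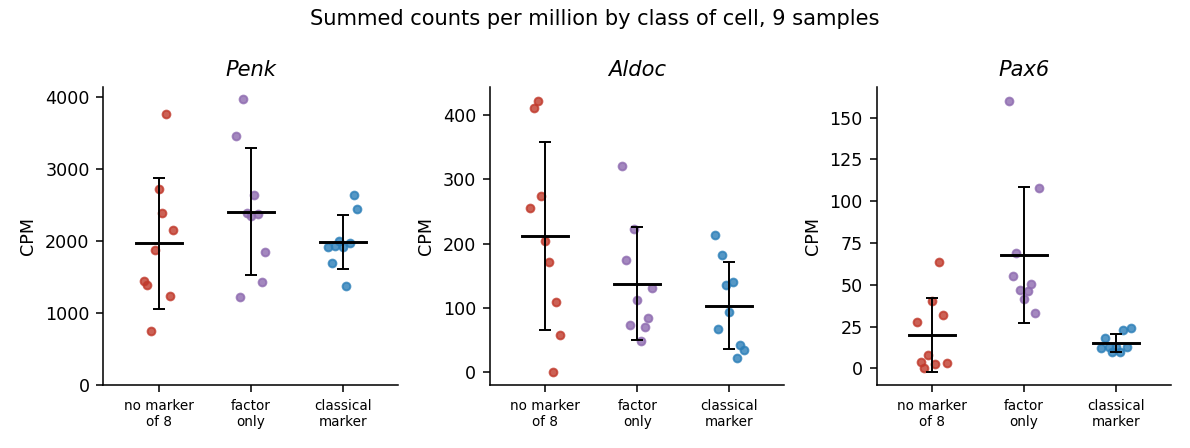
Summed counts, as CPM, of Penk, Aldoc and Pax6 in marker-negative ("no marker of 8"), factor-only and classical-marker neurons, 1 point per sample, with mean and SD over 9 samples. Points of the 3 classes overlap for Penk and Aldoc, and factor-only neurons lie highest for Pax6.

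Grouping all inhibitory neurons by their expression, without the 13 genes used for selection, scattered the marker-negative neurons over 7 of 9 clusters. The largest number, 38, lay in cluster 1, a cluster of 162 cells in which 64.2% of cells were positive for Aldoc. Among these 38 cells 22 were positive for Aldoc and 23 for Penk, whereas among the 66 marker-negative neurons of the other clusters 9 were positive for Aldoc and 57 for Penk. These genes took part in the clustering, so the counts are a description. Cluster 8 held 23 marker-negative neurons from all 9 samples, cluster 2 held 13, cluster 4 held 12 and cluster 7 held 11. Clusters 3 and 6, where 84.1% and 100% of cells were positive for Sst, held 0, and cluster 5, where 95.7% were positive for Prkcd, held 6 of its 186 cells. Sst and Prkcd are markers that the selection excluded, so these low numbers follow from the rule. In 1 case, a cell of the small cluster 9, the cell was positive for the acetylcholine genes Chat and Slc5a7.

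The genes with the largest level ratio in the clusters that held at least 10 marker-negative neurons rested mostly on few cells. In cluster 1 they were Acta2, Lmod1, Sncg and Myl9, with at most 3 positive cells each. In cluster 4 they were Mycn, Hs3st2, Rasd1 and Calcrl, with Mycn and Rasd1 positive in 4 of the 12 marker-negative neurons each. The leading genes of clusters 2, 7 and 8 had 1 positive cell each apart from Ints9, with 8 cells in cluster 7, and Gm16973, with 3 in cluster 8. No cluster was given a cell type name.

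**Figure D3:**
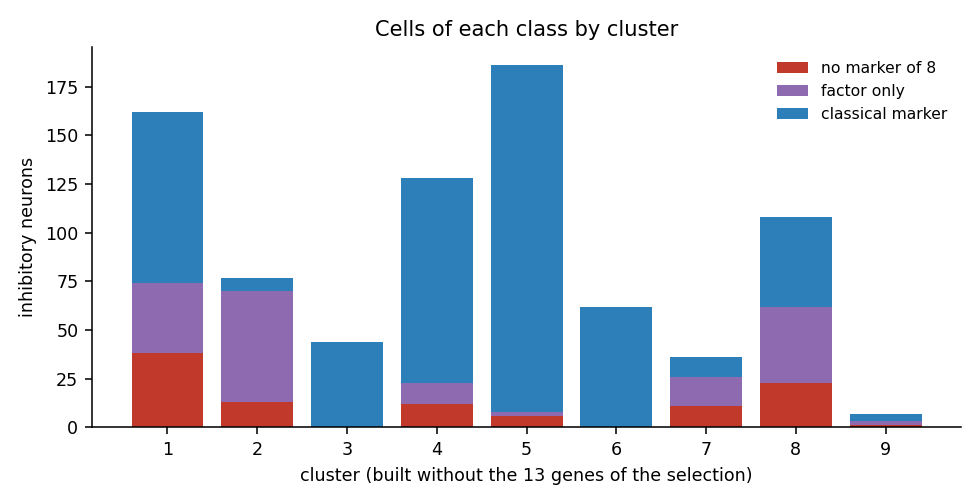
Number of inhibitory neurons per cluster, split into marker-negative ("no marker of 8"), factor-only and classical-marker neurons. Marker-negative neurons are most numerous in clusters 1 (38 cells) and 8 (23 cells) and number 0 in clusters 3 and 6.

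Against the other inhibitory neurons, marker-negative neurons had lower levels of activity-regulated genes, of the peptide precursors dynorphin and CART, and of Ncdn, and higher levels of Gpr101, Lrp1b and Ap1s2. On counts summed per class and sample, 11129 genes were tested. Higher in marker-negative neurons were 3 genes (0.027%) and lower 63 (0.566%), 0.593% in all, at an adjusted p under 0.05 (edgeR quasi-likelihood test with the sample as a block). The comparison cells had been selected for expressing at least 1 of the 8 markers, so genes carried by the same cells as a marker are not independent of the selection. The sums covered 7 to 14 marker-negative neurons per sample and 70 to 88 others. Genes named below for their fold change had to differ in the same direction in every sample. That direction in all samples was thus fixed by the choice and is no further support. Junb, Cartpt, Kcnip2 and Hpcal4 were named from gene lists, without that condition. The median log2 fold change over all genes was -0.25, and changes are best read against that value. A mean of log values over cells, with limma, moved the median to 0.02 and called 59 genes higher and 90 lower, and DESeq2 called 123 higher and 611 lower. With an equal number of comparison cells matched for depth the median was 0.0032 and 0 genes passed (561 at an unadjusted p under 0.05). All 46 of the called genes that could be tested kept their direction, but they had been called in the same marker-negative neurons.

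Fos, Junb and Egr4, transcription factors induced by neuronal activity, fell together in marker-negative neurons. Their promoters are shown because the 3 genes moved together. Each is the RefSeq stretch of 300 bases from 250 before to 50 after the gene's start, printed in the gene's own direction (GRCm38.p6). Fos lies at chr12:85473640-85473939 on the plus strand, Junb at chr8:84978699-84978998 on the minus strand and Egr4 at chr6:85513540-85513839 on the minus strand. Capitals mark CGTCA or its reverse complement TGACG, the core of the cAMP response element, searched on both strands.
Fos: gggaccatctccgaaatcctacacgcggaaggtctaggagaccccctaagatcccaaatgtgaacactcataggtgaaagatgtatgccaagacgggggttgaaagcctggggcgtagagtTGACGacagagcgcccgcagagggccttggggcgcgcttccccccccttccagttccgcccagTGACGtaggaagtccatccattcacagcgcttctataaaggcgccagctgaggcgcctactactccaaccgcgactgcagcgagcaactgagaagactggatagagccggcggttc
Junb: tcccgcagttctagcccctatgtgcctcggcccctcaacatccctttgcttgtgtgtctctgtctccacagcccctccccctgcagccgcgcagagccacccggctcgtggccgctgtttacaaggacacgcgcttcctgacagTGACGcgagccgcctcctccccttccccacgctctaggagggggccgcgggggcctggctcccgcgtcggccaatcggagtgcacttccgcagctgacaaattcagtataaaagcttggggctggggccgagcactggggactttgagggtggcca
Egr4: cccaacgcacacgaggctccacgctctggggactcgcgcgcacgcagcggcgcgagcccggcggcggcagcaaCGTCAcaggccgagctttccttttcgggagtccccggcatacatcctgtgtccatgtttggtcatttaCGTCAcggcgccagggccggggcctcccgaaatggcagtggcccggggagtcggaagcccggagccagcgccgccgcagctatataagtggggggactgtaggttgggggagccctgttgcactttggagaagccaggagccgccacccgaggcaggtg
The motif occurred 2 times for Fos, 1 time for Junb and 2 times for Egr4, and 20.8% of 32851 promoters of this length hold it. The full element TGACGTCA, which contains the shorter motif, and the CArG box occurred 0 times in the 3 stretches, against 1.79% and 1.63% of all promoters. These are matches of letters and say nothing of binding.

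Fos was at 15.9, 81.5 and 204 CPM in marker-negative neurons (lowest, median and highest sample), against 147, 202 and 301 CPM in the others. It was lower in 9 of 9 samples, with the ranges overlapping through samples 7 and 9. Its log2 fold change was -1.69 ± 0.27 (SE, edgeR adjusted p = 0.0141), and 22.1% of marker-negative neurons were positive, against 38.1% of the others. Junb, a partner of Fos in the AP-1 factor, was at 56.4, 91.4 and 197 CPM, against 189, 249 and 301 CPM, lower in 9 of 9 samples and overlapping only through sample 9. The log2 fold change of Junb was -1.19 ± 0.17 (edgeR adjusted p = 0.0106). Egr4, a zinc finger factor, was at 4.54, 22.9 and 92.6 CPM, against 65.8, 75.4 and 134 CPM, lower in 9 of 9 samples (log2 fold change -1.82 ± 0.33, edgeR adjusted p = 0.0319). Fos and Junb passed whichever sample was left out, but Egr4 did not pass without sample 1, 2, 4, 5 or 6, where its adjusted p reached 0.0876.

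Of the 17 immediate early genes tested these were the 3 that passed, all lower, and the list's median log2 fold change was -1.62, beside -0.25 over all genes. The change was negative for 16 of the 17, beside 7963 of all 11129 genes tested. Among the 16 were Npas4 at -2.32 (edgeR adjusted p = 0.0743) and Egr1 at -0.68 (edgeR adjusted p = 0.0986). The change was positive for Jund at 0.19. In the mean of log values the list's median was -0.56, beside 0.02 over all genes, with 4 lower. Of the heat shock and dissociation stress genes 0 of 7 tested passed, with a median of -0.07. Oxidative phosphorylation (0 of 19 passed, median -0.01) and glycolysis (0 of 15, median 0.00193) lay close to 0.

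Among peptide precursors, those of dynorphin and CART fell. Pdyn, the dynorphin precursor, was at 2.70, 30.2 and 352 CPM in marker-negative neurons, against 131, 377 and 575 CPM in the others. It was lower in 9 of 9 samples, although sample 3 at 352 CPM stood far above the next sample at 91.3. Its log2 fold change was -3.12 ± 0.48 (edgeR adjusted p = 0.0125), while the level in counts summed over all samples was 4.94 times lower. The call held without each sample in turn, but the mean of log values gave an adjusted p of 0.0563. Cartpt, the CART peptide precursor, was at 0, 14.6 and 602 CPM, against 445, 651 and 959 CPM, and positive in 6.73% of marker-negative neurons, against 34.6% of the others. It was lower in 8 of 9 samples, the exception being sample 9 (log2 fold change -4.61 ± 0.81, edgeR adjusted p = 0.0256). Without sample 1, 2, 3, 4 or 5 it did not pass, with an edgeR adjusted p up to 0.0784. Factor-only neurons averaged 68.5 CPM of Cartpt, against 111 CPM in marker-negative neurons, a mean that rested largely on sample 9. By the median sample the order was reversed, at 67.1 CPM in factor-only and 14.6 CPM in marker-negative neurons. Pdyn and Cartpt were 2 of 11 neuropeptide genes tested, whose median was -1.46 in the sums and -0.07 in the mean of log values. None of 17 neuropeptide receptor genes passed.

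Ncdn showed the smallest adjusted p of the 11129 genes. This gene encodes neurochondrin, a neuronal protein that binds calcium/calmodulin-dependent kinase II. It was at 427, 524 and 1452 CPM in marker-negative neurons, against 1369, 1925 and 2184 CPM in the others. It was lower in 9 of 9 samples and overlapped through sample 7 alone (log2 fold change -1.49 ± 0.17, edgeR adjusted p = 0.00421). It was positive in 98.1% of marker-negative neurons and 99.4% of the others, so that the level differed where nearly every cell carried the gene. Kcnip2, an accessory subunit of A-type potassium channels, was at 36.2, 116 and 146 CPM, against 156, 218 and 260 CPM, with no overlap (log2 fold change -0.996 ± 0.21, edgeR adjusted p = 0.0473). Hpcal4, a neuronal calcium sensor, was at 231, 352 and 789 CPM, against 428, 604 and 708 CPM, lower in every sample but number 7 (log2 fold change -0.70 ± 0.13, edgeR adjusted p = 0.0325). They were 1 of 34 potassium channel genes and 1 of 15 calcium-binding genes tested, with list medians of -0.12 and -0.29, and no gene of the other lists passed.

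Several genes of low overall level had few counts in the marker-negative neurons. Car8, a carbonic anhydrase relative without the enzyme's activity, had 18 counts in 3 of the marker-negative neurons, and its summed level was 17.4 times lower than in the others (edgeR adjusted p = 0.0200). Fam46a, of a family of poly(A) polymerases, was 8.90 times lower (adjusted p = 0.0473), and Igfbp2, a binding protein of insulin-like growth factors, 10.3 times lower (adjusted p = 0.0473), each by edgeR. Plekhh2, a pleckstrin homology domain protein, was 7.90 times lower (edgeR adjusted p = 0.0473), and Dnahc5, a dynein heavy chain, 6.14 times lower (edgeR adjusted p = 0.0444). All 5 were lower in 9 of 9 samples, with ranges that overlapped, and in sample 9 Plekhh2 was at 38.7 CPM in marker-negative neurons, against 47.1 CPM in the others. The factor-only neurons, a part of the comparison cells, also had low levels of these genes. As means of 9 samples, Car8, Igfbp2, Fam46a, Dnahc5 and Plekhh2 were at 1.33, 1.5, 2.14, 4.68 and 10.8 CPM in marker-negative neurons, against 0.228, 0.276, 2.64, 3.63 and 11.5 CPM in factor-only neurons. Eepd1, of the endonuclease/exonuclease/phosphatase domain family, was at 11.6, 69.2 and 165 CPM, against 175, 245 and 360 CPM, with no overlap (log2 fold change -2.17 ± 0.37, edgeR adjusted p = 0.0224). Factor-only neurons averaged 36.1 CPM of Eepd1, below the mean of 77.5 CPM in marker-negative neurons.

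The 3 genes that rose were positive in a larger share of the marker-negative neurons than of the other inhibitory neurons, most of which are classical-marker neurons. Gpr101, an orphan G protein-coupled receptor, was at 47.9, 126 and 182 CPM, against 27.0, 41.4 and 83.7 CPM, higher in 9 of 9 samples but overlapping (log2 fold change 1.32 ± 0.25, edgeR adjusted p = 0.0354). It was positive in 27.9% of marker-negative neurons, against 13.5% of the others, and in 28.7% against 14.1% after thinning. Lrp1b, a large receptor of the low-density lipoprotein receptor family, was at 96.5, 156 and 296 CPM, against 48.0, 78.4 and 109 CPM (log2 fold change 0.94 ± 0.19, edgeR adjusted p = 0.0473), and positive in 49.0% against 26.2%. Ap1s2, a subunit of the AP-1 clathrin adaptor, was at 319, 518 and 716 CPM, against 293, 342 and 468 CPM (log2 fold change 0.52 ± 0.11, edgeR adjusted p = 0.0498). Lrp1b and Ap1s2 too were higher in 9 of 9 samples, with overlapping ranges. Within the comparison cells, factor-only neurons were positive for Lrp1b, Gpr101 and Ap1s2 in 50.6%, 24.1% and 71.6%. The shares were 49.0%, 27.9% and 77.9% in marker-negative neurons and 18.9%, 10.3% and 61.2% in classical-marker neurons. As means of 9 samples, these genes were at 164, 74.6 and 384 CPM in factor-only neurons, against 163, 114 and 513 CPM in marker-negative neurons.

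These calls changed when samples or cells were left out. Leaving out any 1 sample lowered the number of lower genes to between 19 and 39, and the number of higher genes lay between 0 and 3. Pdyn, Fos, Ncdn and Junb passed in all 9 of these fits, whereas Car8 and Eepd1 passed in 5, Egr4 and Cartpt in 4, Gpr101 in 3, and Plekhh2 and Hpcal4 in 2. Lrp1b, Ap1s2, Fam46a and Igfbp2 passed in 1 of the 9, and Kcnip2 and Dnahc5 in 0. With the samples summed by their 3 animal numbers, 0 of the 66 genes were called again by edgeR. The fold changes of all 66 kept their direction, and 63 of them had an unadjusted p under 0.05. With comparison cells matched in number and depth, 46 of the 66 genes could be tested and 0 were called, with all 46 in the same direction. Both fits reused the cells in which the 66 genes had been called, so the kept directions are no independent support. Without the 2 marker-negative neurons of sample 5 that carried oligodendrocyte genes, 1 gene was higher and 34 lower, and 33 of the 66 genes called before were called again. Gpr101 then had a log2 fold change of 1.05 (adjusted p = 0.474) and Ap1s2 0.55 (adjusted p = 0.0590), and the mean of log values over all cells gave Gpr101 an adjusted p of 0.0575. Lrp1b still passed at 0.997 (adjusted p = 0.0441). Fos, Junb, Egr4, Pdyn, Cartpt, Ncdn, Car8 and Eepd1 also still passed, at adjusted p-values from 0.00296 for Ncdn to 0.0436 for Egr4. Hpcal4 (0.0590), Kcnip2 (0.0737), Dnahc5 (0.0519), Fam46a (0.0560), Igfbp2 (0.0570) and Plekhh2 (0.0570) did not.

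**Figure D4:**
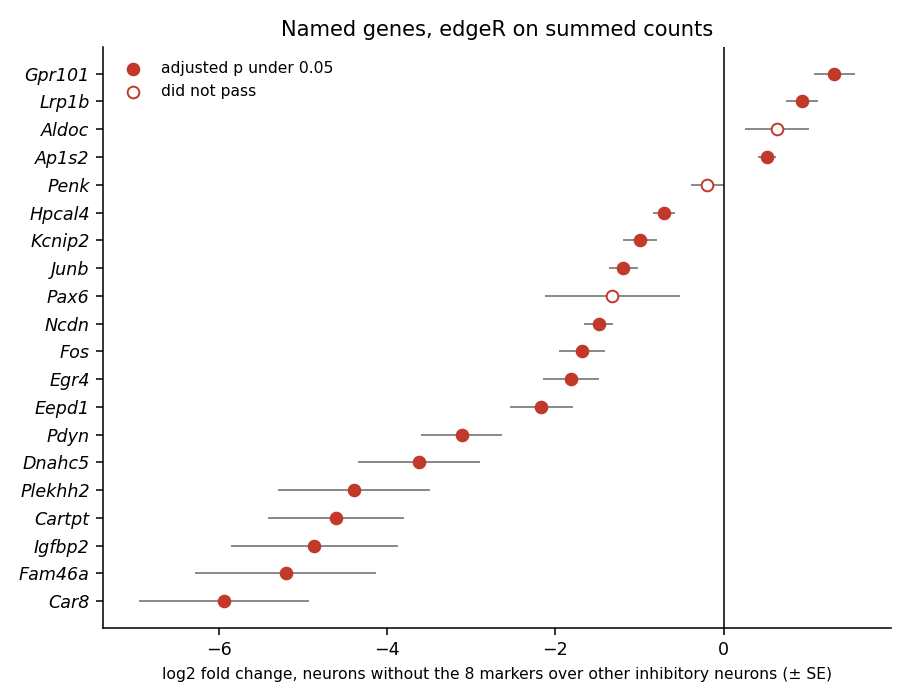
Log2 fold change of the named genes, marker-negative over other inhibitory neurons, from edgeR on summed counts of 9 samples, with bars of 1 standard error. Filled points passed at an adjusted p under 0.05, and open points (Aldoc, Penk and Pax6) did not. For Car8, Fam46a, Igfbp2, Plekhh2, Dnahc5, Cartpt, Aldoc and Pax6 the marker-negative sum was 0 in at least 1 sample, so the fitted fold change depends on the tool's prior count.

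The difference was sought next within the comparison cells. Classical-marker neurons make up most of the other inhibitory neurons, so this comparison shares its cells with the one above and repeats it in part. Among 10813 genes, marker-negative neurons had higher levels of 30 (0.277%) and lower levels of 126 (1.17%), 1.44% in all (edgeR, same design). Median-of-ratios scaling gave 44 higher and 101 lower, and the mean of log values gave 191 and 208. The median log2 fold change over all genes was -0.23. Leaving out 1 sample gave 6 to 46 higher and 53 to 133 lower, fewest without sample 6 and most without sample 7. Without the 2 oligodendrocyte-gene cells 24 were higher and 112 lower.

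The higher genes with the largest fold changes were Shd, Gpr101, Lrp1b, Shisa4, Pde4b and Dlk1. Lrp1b was at 96.5, 156 and 296 CPM in marker-negative neurons, against 29.2, 60.9 and 81.6 CPM in classical-marker neurons, with no overlap (log2 fold change 1.49 ± 0.19, edgeR adjusted p = 0.00206). Gpr101 was at 47.9, 126 and 182 CPM, against 15.8, 34.6 and 60.1 CPM (log2 fold change 1.73 ± 0.23, edgeR adjusted p = 0.00225). Both passed whichever sample was left out, but without the 2 oligodendrocyte-gene cells of sample 5 Gpr101 had a log2 fold change of 1.48 and an adjusted p of 0.264. Shisa4, a transmembrane protein, was at 55.6, 69.0 and 342 CPM, against 11.8, 33.5 and 48.3 CPM, with no overlap and its highest value in sample 5 (log2 fold change 1.46 ± 0.34, edgeR adjusted p = 0.0468).

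Dlk1, a Notch-family ligand, was at 48.9, 107 and 144 CPM in marker-negative neurons, against 23.8, 37.8 and 68.3 CPM in classical-marker neurons (log2 fold change 1.27 ± 0.26, edgeR adjusted p = 0.0248). Pde4b, which breaks down cyclic AMP, was at 29.0, 111 and 151 CPM, against 17.6, 30.7 and 82.1 CPM (log2 fold change 1.44 ± 0.29, edgeR adjusted p = 0.0252). Shd, an SH2 domain adaptor, was at 9.42, 34.0 and 88.1 CPM, against 3.74, 12.1 and 19.1 CPM (log2 fold change 1.81 ± 0.42, edgeR adjusted p = 0.0475). All 3 were higher in 9 of 9 samples, which the choice of named genes required, with overlapping ranges. As means of 9 samples, Dlk1 and Pde4b were higher still in factor-only neurons, at 125 and 134 CPM, against 99.7 and 97.8 CPM in marker-negative neurons. Shd was at 22.2 CPM in factor-only neurons, against 37.5 CPM in marker-negative neurons. Shisa4 was at 70.3 CPM, against 100 CPM, a mean raised by sample 5 at 342 CPM. By the median sample Shisa4 was at 82.1 CPM in factor-only and 69.0 CPM in marker-negative neurons. Dlk1 passed without sample 2, 4 or 7 and Pde4b without sample 1, 4 or 7, and their adjusted p-values otherwise reached 0.0719 and 0.0785. Pde4b (adjusted p = 0.0683) and Shd (adjusted p = 0.32) did not pass without the oligodendrocyte-gene cells, and Shd and Shisa4 did not pass in any of the fits that left out 1 sample, with adjusted p up to 0.115 and 0.114.

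The lower genes with the largest fold changes were C1ql2, Car8, Bdnf, Fam46a, Igfbp2 and Prss23. C1ql2, a secreted organizer of synapses, had 4 counts in all marker-negative neurons and a summed level 79.8 times lower than in classical-marker neurons (edgeR adjusted p = 0.00267). Bdnf, a neurotrophin, was 5.27 times lower, with 59 counts, nearly all in sample 9, where it stood at 36.7 CPM (edgeR adjusted p = 0.0196). Car8 was 22.3 times lower (edgeR adjusted p = 0.00544), Fam46a 10.96 times (adjusted p = 0.0179), Igfbp2 13.2 times (adjusted p = 0.0165) and Prss23, a serine protease, 6.66 times (edgeR adjusted p = 0.0236). All 6 were lower in 9 of 9 samples, which the choice of named genes required. As means of 9 samples, C1ql2, Bdnf and Prss23 were at 0.279, 4.25 and 3.02 CPM in marker-negative neurons. In factor-only neurons they were at 0.631, 1.99 and 5.06 CPM. Bdnf did not pass without sample 2, 6 or 8 (adjusted p up to 0.0583), nor Prss23 without sample 1, 2, 4, 8 or 9 (up to 0.0632).

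By list, the immediate early genes again had 3 lower of 16 tested, with a median of -1.80, and the neuropeptides 2 lower of 10. The genes named in the rest of this paragraph were chosen after their values were seen. Of 14 striatal projection neuron genes 2 were lower, Ppp1r1b, the dopamine-regulated phosphatase inhibitor DARPP-32 (-1.63, edgeR adjusted p = 0.0306), and the transcription factor Bcl11b (-0.66, edgeR adjusted p = 0.0421). Ppp1r1b averaged 166 ± 112 CPM in marker-negative neurons and 415 ± 69.8 CPM in classical-marker neurons (SD, n = 9). Among 15 calcium-binding genes Hpca, encoding hippocalcin, was higher (0.70, edgeR adjusted p = 0.00206), at 804 ± 182 CPM against 486 ± 80.2 CPM, whereas its relatives Hpcal1 (-0.77, adjusted p = 0.0179) and Hpcal4 (-0.84, adjusted p = 0.00359) were lower by edgeR. The factor gene Tshz2 (-1.11, edgeR adjusted p = 0.0316), the receptor activity-modifying gene Ramp1 (-0.94, edgeR adjusted p = 0.0248) and the cytoskeletal gene Map2, listed as Mtap2 (-0.56, edgeR adjusted p = 0.0252), were lower.

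Against factor-only neurons, the class that by definition is positive for Nr2f2, Isl1 or Foxp1, no gene passed the test. Among 9498 genes edgeR called 0 higher (0.0%) and 0 lower (0.0%) in marker-negative neurons, with 121 higher and 251 lower at an unadjusted p under 0.05. DESeq2 called 4 higher and 20 lower, and edgeR without the filter on low counts 2 and 2. The smallest adjusted p was 0.999, which does not show that the classes are alike.

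Ncdn averaged 733 ± 362 CPM in marker-negative neurons and 651 ± 113 CPM in factor-only neurons (SD, n = 9; log2 fold change 0.061 ± 0.19 SE, edgeR adjusted p = 0.999). Lrp1b averaged 163 ± 60.6 CPM and 164 ± 29.3 CPM (log2 fold change -0.067 ± 0.21), and Pdyn 71.5 ± 108 CPM and 52.6 ± 37.8 CPM (log2 fold change -0.25 ± 0.79). The values of the immediate early genes lay below those of factor-only neurons, at 114 ± 48.1 CPM and 193 ± 42.6 CPM for Junb (log2 fold change -0.83 ± 0.23, lower in 7 of 9 samples). For Fos they were 82.4 ± 63.6 CPM and 140 ± 75.3 CPM (log2 fold change -0.95 ± 0.38, lower in 8 of 9 samples). The list of 12 immediate early genes tested had a median of -0.91, beside -0.07 over all genes, and 0 passed. Pax6 averaged 20.2 ± 22.1 CPM and 67.9 ± 40.9 CPM, the lower value in marker-negative neurons in 8 of 9 samples (log2 fold change -2.58 ± 0.80, edgeR adjusted p = 0.999).

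**Figure D5:**
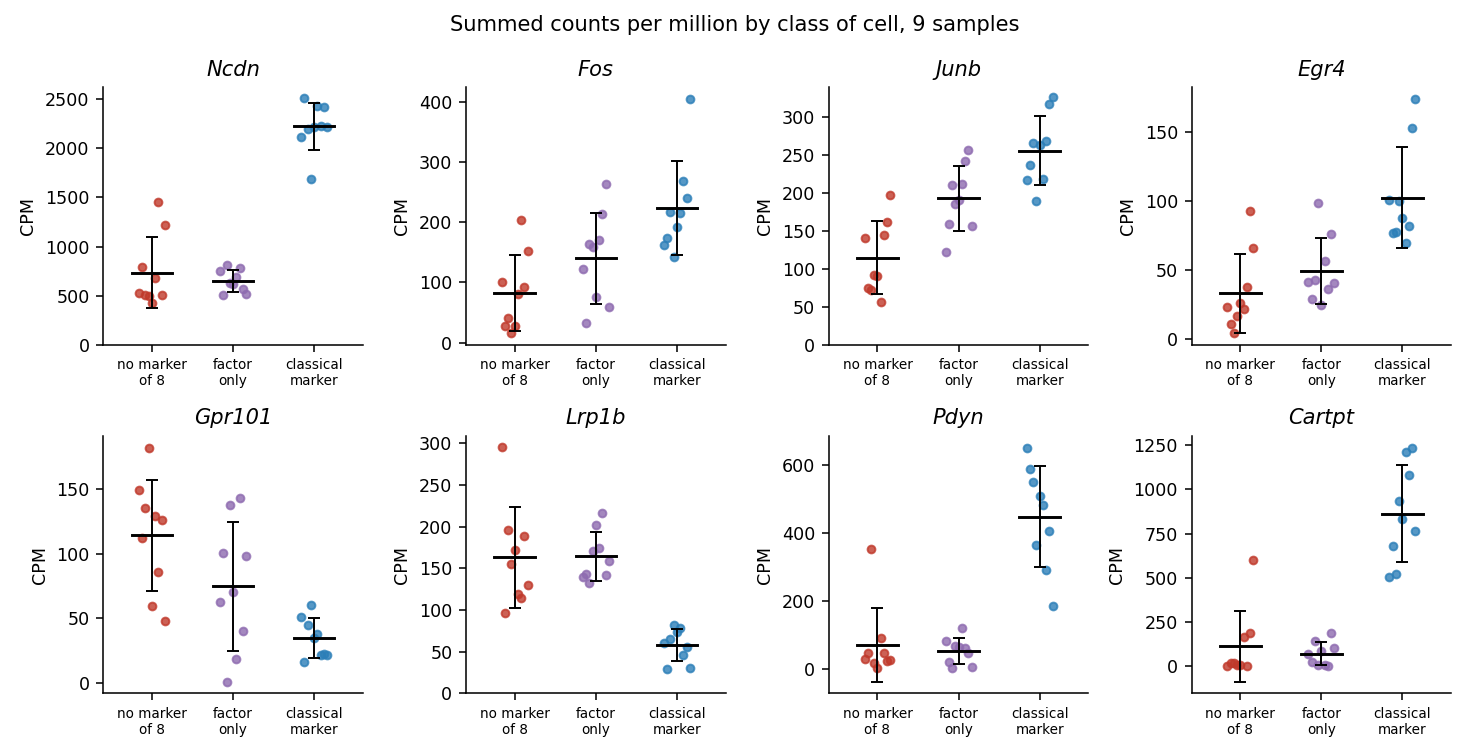
Summed counts, as CPM, of 8 genes in marker-negative ("no marker of 8"), factor-only and classical-marker neurons, 1 point per sample, with mean and SD over 9 samples. Ncdn, Lrp1b, Pdyn and Cartpt overlap widely between marker-negative and factor-only neurons, and Fos, Junb and Egr4 are lowest on average in marker-negative neurons.

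Among themselves, the marker-negative neurons were split by Penk into 80 positive and 24 negative cells. In the 5 samples with at least 3 cells of each kind, 45 Penk-positive and 18 Penk-negative cells were compared. Among 7683 genes edgeR called 0 higher (0.0%) and 0 lower (0.0%) in the Penk-positive cells, with 223 higher and 72 lower at an unadjusted p under 0.05, and without the filter on low counts 12 were higher and 6 lower. On simulated data this fit recovered 2% of 2-fold and 26% of 4-fold changes, so the 0 calls do not show that the cells are alike. The genes with the lowest unadjusted p are given as a description, chosen after their values were seen. Itpka, a kinase of inositol trisphosphate found in dendritic spines, was at 88.5, 96.2 and 167 CPM in Penk-positive cells (lowest, median and highest of 5 samples), against 0, 3.82 and 8.92 CPM in Penk-negative cells (log2 fold change 4.82 ± 0.96, edgeR adjusted p = 0.998). Cplx1, a complexin of the synaptic release machinery, was at 161, 177 and 256 CPM, against 353, 417 and 1155 CPM (log2 fold change -1.34 ± 0.29, edgeR adjusted p = 0.998). Neither gene's ranges overlapped. Rab3b, a small GTPase of synaptic vesicles, was positive in 4 of the 80 Penk-positive cells and 13 of the 24 Penk-negative cells, and Itpka in 27 and 0.

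Markers of neighbouring cell kinds were also counted in the marker-negative neurons. Striatal projection neuron markers were found in fewer of them, with at least 1 of 6 positive in 57.7% of marker-negative neurons and 81.2% of the others, mainly through Ppp1r1b at 22.1% and 60.1%. In the test across all genes Ppp1r1b was at -1.58 ± 0.35 (edgeR adjusted p = 0.0578), and 0 of 15 genes of this list passed. The intercalated-cell genes Foxp2, Tshz1 and Drd1a were positive in 3.85%, 4.81% and 6.73% of marker-negative neurons, against 1.98%, 2.41% and 2.97% of the others. These shares rested on 4, 5 and 7 marker-negative neurons, and by sample Foxp2 was higher in 3 and lower in 3, and Tshz1 higher in 4 and lower in 4. Factor-only neurons, a part of the others, were positive for Foxp2, Tshz1 and Drd1a in 4.32%, 2.47% and 7.41%. The intercalated markers Penk and Pax6 were positive in 76.9% and 9.62% of marker-negative neurons, against 77.6% and 9.77% of the others, and 3 or more of the 5 markers were positive in 1 of 104 marker-negative neurons, against 11 of the 706 others. In the test across all genes 0 of 9 intercalated-cell genes passed, with a median log2 fold change of -0.19. Among interneuron markers, Reln was positive in 7.69%, against 2.69%, and Lhx6 in 3.85%, against 0.283%, each in few cells (8 and 4 marker-negative neurons). Factor-only neurons were positive for Reln in 4.94% and for Lhx6 in 0%. Pvalb was positive in 0 of 104 marker-negative neurons, against 19 of the 706 others (2.69%), and in 0 of the 162 factor-only neurons. Only these 3 of the 6 interneuron markers were found under the symbols searched. A marker held under another symbol would not have been counted. In the test across all genes 0 of 6 neurogliaform and other interneuron genes passed, with a median log2 fold change of -0.41. The neurofilament gene Nefl was positive in 58.7%, against 38.0%, and more often in marker-negative neurons in 9 of 9 samples. Among the others, factor-only neurons were positive for Nefl in 51.9% and classical-marker neurons in 33.8%. The summed level of Nefl did not pass (log2 fold change 0.44 ± 0.15, edgeR adjusted p = 0.248).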

How the data were processed

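The authors deposited a table of whole-number counts per gene and cell, with spike-in rows, and a table assigning cells to animal numbers and date fields. Per the submitters' processing notes, the build was NCBIM37 and Seurat was used; the sources used here do not say whether molecules or reads were counted. Members and gene lists were chosen with earlier results of these data known.

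Spike-in rows were left out, cells were classed as the report states, and counts were summed per class and sample (at least 5 cells, or 3 for Penk). Sums were tested with edgeR 4.0.16 (TMM, filterByExpr, sample block because both classes come from the same sample). On simulated data edgeR recovered 22% of 2-fold and 54% of 4-fold changes against the other inhibitory neurons. These values were 19% and 62% against factor-only neurons and 28% and 54% against classical-marker neurons. For the Penk comparison they were 2% and 26%. The 13 selection genes stayed out of the adjustment. Alternatives used DESeq2 1.42.0, limma 3.58.1 on log2(CPM + 1), and those of the closing section. Clusters used scanpy 1.11.5 (Leiden, 2000 variable genes, resolution 1); doublets were not called. Of 450 listed genes, 435 matched, 3 by an older symbol. Promoters are RefSeq's. Named genes passed the test, averaged at least 10 CPM and moved 1 way in every sample, up to 10 per direction by fold (6 in other comparisons), plus up to 2 per list, the proposed markers, and up to 4 genes per cluster. An oligodendrocyte marker is not reported here, and the marker check uses the others.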

Additional observations from a re-analysis of the deposited data

Results flagged for a closer look

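Of 30 groups of 9 values examined, 5 held a sample far from the rest by Dixon's criterion, which chance alone meets in about 1 group in 20. Sample 5 had the highest median of gene counts in marker-negative neurons, 213679, against 141745.5 in the next sample. The same sample was highest in the other inhibitory neurons, at 232973, against 154255 in the next. Lrp1b in marker-negative neurons reached 296 CPM in sample 1, which held 7 such cells, against 197 CPM in the next sample. Pdyn in marker-negative neurons reached 352 CPM in sample 3, against 91.3 CPM in the next. Shisa4 in marker-negative neurons reached 342 CPM in sample 5, against 108 CPM in the next. Without the 2 oligodendrocyte-gene cells of that sample its log2 fold change against classical-marker neurons was 1.25 (edgeR adjusted p = 0.0379).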

How the results depend on the processing

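Against the other inhibitory neurons (3 higher, 63 lower), the counts moved to 0 and 0 with sums per animal number or with comparison cells matched in number and depth. They were 123 and 611 with DESeq2, 62 and 122 at 3 counts per 10000, 0 and 18 with at least 10 cells per class, 0 and 15 without Mbp-positive cells, and 1 and 34 without the oligodendrocyte-gene cells, an alternative chosen after seeing the data. The number lower was 34 without the replicate block and 23 with median-of-ratios scaling, and the number higher was 59 in the mean of log values, also chosen after seeing the data. Leaving out 1 sample gave 0 to 3 higher and 19 to 39 lower. Against factor-only neurons DESeq2 gave 4 higher and 20 lower, and no filter on low counts gave 2 and 2. Against classical-marker neurons (30 and 126) DESeq2 gave 244 and 678, the mean of log values 191 and 208, no filter 19 higher, and leaving out 1 sample 6 to 46 higher and 53 to 133 lower. The Penk comparison gave 12 and 6 without the filter. The member share moved to 1.64% at 1 count and to 28.1% at 3 counts per 10000. The log2 ratio of gene counts turned to -0.0024 without Mbp-positive cells, and Penk to 0.0155 in the mean of log values (adjusted p = 0.988). The cause of these changes was not tested. No comparison could be run with 1 count as the level for positive, because no sample then held 5 marker-negative neurons. Depth limits calls in the low-count genes, where sums of marker-negative neurons held few counts.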
